A study of Mus musculus with 4 samples.

Results

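The 36 genes described here are messengers of the cell cycle, chosen by symbol, and each was found once among the 32285 genes of the count matrices. They fall into 21 genes of mitosis (Mki67, Top2a, Ccna2, Ccnb1, Ccnb2, Cdk1, Birc5, Cenpa, Cenpe, Cenpf, Tpx2, Aurka, Aurkb, Bub1, Bub1b, Ube2c, Nusap1, Prc1, Kif11, Kif23 and Cdca8), 13 genes of DNA replication (Pclaf, Pcna, Mcm2 to Mcm7, Tyms, Rrm1, Rrm2, Tk1 and Gins2) and 2 genes that dividing cells raise but other cells also use, Hmgb2 and Stmn1. Their UMIs (unique molecular identifiers, each counting 1 captured RNA molecule) were read in single mononuclear cells of dystrophic mouse muscle. There were 4 libraries, 1 per group, all from mice aged 14 weeks: mdx5cv/Ccr2-/- diaphragm, mdx5cv diaphragm, mdx5cv/Ccr2-/- quadriceps and mdx5cv quadriceps. The mdx5cv allele, shared by all 4 libraries, removes dystrophin and models Duchenne muscular dystrophy. The Ccr2-/- mice also lack the chemokine receptor that draws classical monocytes out of the blood, and the series set out to follow the macrophages resident in muscle when it is missing. The number of animals pooled per library, the deleted part of Ccr2 and the strain background were not given in the sources used here.

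Cells that divide first copy their DNA and then separate the copies, and each step has its own set of transcripts. The MCM proteins, Mcm2 to Mcm7, form the ring that unwinds DNA, the Pcna clamp holds the polymerase on it, and Rrm1, Rrm2, Tyms and Tk1 make its building blocks. Cdk1 with the cyclins of Ccna2, Ccnb1 and Ccnb2 starts mitosis, Top2a untangles chromosomes, Ube2c marks cyclins for destruction, and the kinesins Kif11 and Kif23 and the bundler Prc1 work on the spindle. Mki67 encodes Ki-67, the common stain for dividing cells. In injured and dystrophic muscle, macrophages, fibro-adipogenic progenitors (FAPs, the main fibroblasts of muscle), endothelial cells and the stem cells that rebuild fibres can all enter the cycle.

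The 2 sets of genes also differ in the DNA before them, which is shown because mitosis and replication genes are reported apart below. RefSeq promoter windows (GRCm38.p6, 250 bases before to 50 after the start) were matched for 30 of the 36 genes. In each line below, capitals mark 3 motifs read on both strands: the CCAAT box, the cell cycle homology element TTTGAA, and the E2F cores TTCCCGC and TTGGCGC.
Ccnb2, chr9:70421505-70421804, minus strand: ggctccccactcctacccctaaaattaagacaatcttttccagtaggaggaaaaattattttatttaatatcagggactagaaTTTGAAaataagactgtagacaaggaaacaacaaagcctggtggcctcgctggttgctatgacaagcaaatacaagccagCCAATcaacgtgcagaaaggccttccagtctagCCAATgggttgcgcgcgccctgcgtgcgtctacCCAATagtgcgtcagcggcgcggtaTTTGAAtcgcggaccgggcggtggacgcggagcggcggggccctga
Cdk1, chr10:69352863-69353162, minus strand: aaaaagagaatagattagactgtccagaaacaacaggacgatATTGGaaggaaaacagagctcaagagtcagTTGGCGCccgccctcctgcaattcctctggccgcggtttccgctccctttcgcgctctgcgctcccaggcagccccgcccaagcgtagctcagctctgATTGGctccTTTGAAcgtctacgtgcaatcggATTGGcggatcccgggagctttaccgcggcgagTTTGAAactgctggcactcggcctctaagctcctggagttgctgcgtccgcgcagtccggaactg
Top2a, chr11:99024140-99024439, minus strand: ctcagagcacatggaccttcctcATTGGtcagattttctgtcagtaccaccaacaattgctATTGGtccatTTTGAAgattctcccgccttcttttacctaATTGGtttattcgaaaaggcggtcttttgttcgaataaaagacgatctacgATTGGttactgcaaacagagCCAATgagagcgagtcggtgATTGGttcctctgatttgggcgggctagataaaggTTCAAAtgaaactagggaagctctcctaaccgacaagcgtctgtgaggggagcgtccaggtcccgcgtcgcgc
Ube2c, chr2:164769679-164769978, plus strand: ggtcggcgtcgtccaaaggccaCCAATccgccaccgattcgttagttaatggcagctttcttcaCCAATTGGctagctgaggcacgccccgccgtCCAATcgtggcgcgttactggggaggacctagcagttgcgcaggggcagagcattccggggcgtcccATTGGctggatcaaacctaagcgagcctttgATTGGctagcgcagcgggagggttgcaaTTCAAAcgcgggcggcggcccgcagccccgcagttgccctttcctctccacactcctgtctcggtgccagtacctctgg
Mcm5, chr8:75109259-75109558, plus strand: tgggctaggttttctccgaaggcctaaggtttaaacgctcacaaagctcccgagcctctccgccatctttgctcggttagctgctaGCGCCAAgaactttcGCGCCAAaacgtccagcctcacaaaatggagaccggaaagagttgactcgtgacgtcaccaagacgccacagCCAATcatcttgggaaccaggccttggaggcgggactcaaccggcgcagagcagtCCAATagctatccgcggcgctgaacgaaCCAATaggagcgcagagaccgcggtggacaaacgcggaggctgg
Mcm6, chr1:128359656-128359955, minus strand: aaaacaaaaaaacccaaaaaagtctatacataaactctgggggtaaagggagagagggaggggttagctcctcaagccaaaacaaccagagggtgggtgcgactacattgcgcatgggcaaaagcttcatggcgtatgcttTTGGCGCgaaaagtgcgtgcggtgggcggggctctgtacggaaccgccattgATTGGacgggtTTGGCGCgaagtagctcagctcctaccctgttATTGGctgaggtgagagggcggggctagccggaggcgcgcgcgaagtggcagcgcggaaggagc
The mitosis genes Ccnb2, Cdk1 and Top2a each held 2 TTTGAA elements and Ube2c held 1, while Mcm5 and Mcm6 held none. Mcm5 and Mcm6 each held 2 E2F cores, Cdk1 held 1, and Ccnb2, Top2a and Ube2c held none. TTTGAA was present in 13 of 18 mitosis promoters (72.2%), in 1 of 11 replication promoters (9.09%) and in 18.1% of all 27025 promoters of this length. An E2F core was present in 3 of 18 mitosis promoters (16.7%), in 6 of 11 replication promoters (54.5%) and in 6.93% of all. CCAAT was common in both sets, with 16 of 18 (88.9%) and 9 of 11 (81.8%), against 37.9% of all. The promoters printed are a selection, and others of each set differ from them. Ccnb1, Birc5, Cenpe, Bub1 and Nusap1 held no TTTGAA, and Pcna, Mcm2, Tyms, Rrm2 and Tk1 held no E2F core. The motifs were picked with the results known, and a match describes these letters and shows no binding.

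The libraries held 67356144 UMIs over 7048 barcodes (mdx5cv/Ccr2-/- diaphragm), 92189580 over 13175 (mdx5cv diaphragm), 66330555 over 7492 (mdx5cv/Ccr2-/- quadriceps) and 56399477 over 5839 (mdx5cv quadriceps). After filtering, 28735 cells remained, at median depths of 5872 to 8969 UMIs. Ccr2 stood at 8.49 CPM (a gene's UMIs scaled to the total of the library or class) in the mdx5cv/Ccr2-/- and 136 CPM in the mdx5cv diaphragm, and at 15.4 and 253 CPM in the mdx5cv/Ccr2-/- and mdx5cv quadriceps. UMIs outside the deleted part of the gene would still be counted. Libraries shared 9 to 30 barcodes, at most 0.411% of the smaller one. Cells were classed by 6 marker genes per lineage, and 5 separate check markers per class were compared inside and outside it. They were higher inside in 20 of 20 comparisons over the 4 libraries for each of 9 classes, in 19 of 20 for glial-like and in 5 of 5, from 1 library, for mesothelial-like cells. The monocyte-like, Tnmd-high and other finer classes had no check markers. A set of fibroblast-lineage cells rich in Tnmd is called Tnmd-high. Tnmd was detected in 87.1% to 94.5% of its cells over the 4 libraries, against 0.563% to 1.84% of FAP/fibroblast-like cells. Thbs4, also in its gate, was detected in 99.9% to 100% and in 77% to 89.2%, so it set the 2 classes apart less. The set was gated with tenocyte markers, but the tenocyte genes Kera and Scx differed between muscles. It is therefore not named as tenocytes. Kera was detected in 3.06% and 1.98% of its cells in the mdx5cv/Ccr2-/- and mdx5cv diaphragm, and in 24% and 38.2% in the mdx5cv/Ccr2-/- and mdx5cv quadriceps. Scx was detected in 18.4% and 10.9% in the mdx5cv/Ccr2-/- and mdx5cv diaphragm, and in 53.3% and 55.3% in the mdx5cv/Ccr2-/- and mdx5cv quadriceps. Every interval below is an exact 95% interval that covers counting error only. With 1 library per group, differences between mice were not measured and no test was possible.

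Scrublet, which scores cells for being doublets, removed dividing cells more often than other cells, and did so unevenly. Cells with at least 2 UMIs of Mki67 and Top2a together are called cycling here. Among all cells, removal took 10.6% of cycling and 5.54% of other cells in the mdx5cv/Ccr2-/- diaphragm, and 29.4% and 10.2% in the mdx5cv diaphragm. In the quadriceps it took 10.6% of cycling and 5.71% of other cells in the mdx5cv/Ccr2-/- library, and 19.5% and 3.99% in the mdx5cv library. A larger share of cycling cells was thus lost from the mdx5cv library of each muscle, so the summed levels or shares by genotype are given with and without this step.

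**Figure D1:**
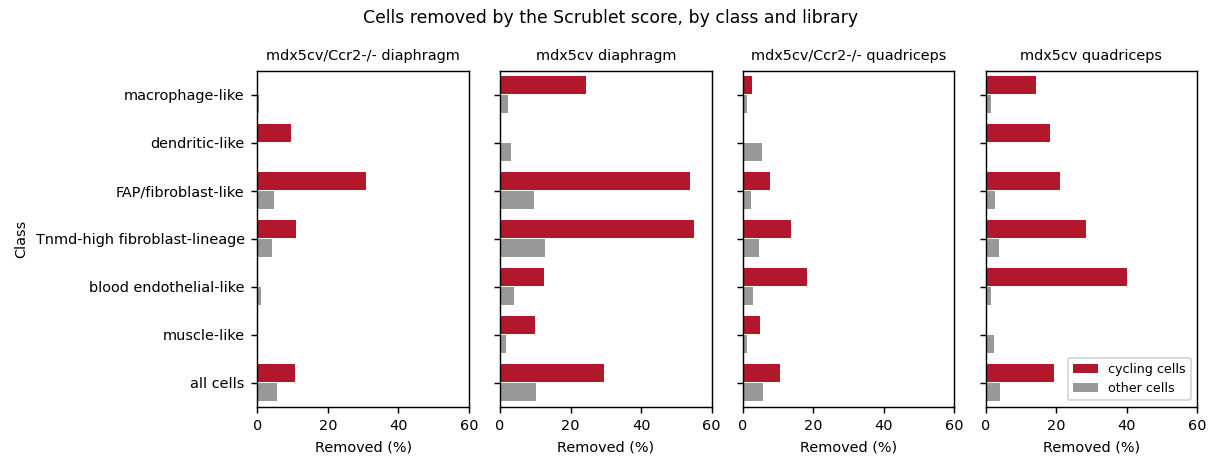
Share of cells (x axis, %) taken out by the Scrublet score in 6 classes and over all cells, with cycling cells in red and other cells in grey, 1 panel per library. The longest red bars are those of FAP/fibroblast-like (53.8%) and Tnmd-high cells (55%) in the mdx5cv diaphragm.

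Dendritic cells, which present antigen to T cells, had the highest cycling share of the 8 classes plotted in 3 of 4 libraries at equal depth, T-like cells being higher in the mdx5cv quadriceps. Before thinning, 19 of 79 dendritic-like cells cycled in the mdx5cv/Ccr2-/- diaphragm (24.1%) and 32 of 195 in the mdx5cv diaphragm (16.4%). The counts were 23 of 108 (21.3%) in the mdx5cv/Ccr2-/- quadriceps and 9 of 87 (10.3%) in the mdx5cv quadriceps. To compare classes of unlike depth, each cell was thinned to 2000 UMIs and shallower cells were left out (381, 1019, 723 and 595 cells of the 4 libraries, in the order of the opening). Dendritic-like cells then had shares of 16.5% (9.06 to 26.5) and 10.8% (6.79 to 16) in the mdx5cv/Ccr2-/- and mdx5cv diaphragm, and 6.54% (2.67 to 13) and 3.45% (0.717 to 9.75) in the mdx5cv/Ccr2-/- and mdx5cv quadriceps. Within these cells, those with Xcr1 or Clec9a, the markers of type 1 conventional dendritic cells, cycled in 22.2% and 20% of cells in the mdx5cv/Ccr2-/- and mdx5cv diaphragm and in 16% and 13.2% in the mdx5cv/Ccr2-/- and mdx5cv quadriceps, before thinning. The other dendritic-like cells cycled in 25.6% and 13.6% in the mdx5cv/Ccr2-/- and mdx5cv diaphragm and in 25.9% and 8.16% in the mdx5cv/Ccr2-/- and mdx5cv quadriceps. The order of these 2 subsets differed between libraries, and with 36 to 110 cells in each their intervals overlapped.

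Of the 5 classes that reached 100 cells in each library, the macrophage-like one had the highest thinned share in both mdx5cv/Ccr2-/- libraries and the muscle-like one in both mdx5cv libraries. The intervals of these 2 classes overlapped in each of the 4 libraries, so their order was not settled. In macrophage-like cells the share was 3.24% (1.74 to 5.48) in the mdx5cv/Ccr2-/- and 0.388% (0.143 to 0.843) in the mdx5cv diaphragm after thinning, and 5.61% and 2.17% in the mdx5cv/Ccr2-/- and mdx5cv quadriceps. Muscle-like cells (muscle stem cells and myoblasts) stood at 1.98% and 2.45% in the mdx5cv/Ccr2-/- and mdx5cv diaphragm and at 3.02% and 2.4% in the mdx5cv/Ccr2-/- and mdx5cv quadriceps, with overlapping intervals. FAP/fibroblast-like cells cycled rarely in the diaphragm, in 1 of 2784 and 4 of 5056 thinned cells in the mdx5cv/Ccr2-/- and mdx5cv diaphragm, against 23 of 961 and 10 of 853 in the mdx5cv/Ccr2-/- and mdx5cv quadriceps. Tnmd-high cells ranged from 0.159% to 0.9% and blood endothelial-like cells from 0.328% to 1.22% over the 4 libraries. T-like cells ranged from 2.08% to 5.41% on 2 to 5 cycling cells per library. Neutrophils, which have left the cycle, served as the class that should lack both genes. None of them cycled after thinning in any library, but with only 3 to 55 cells left per library a count of 0 allows, at 3 cells, a share of up to 5.45% even in the best sampled one, the mdx5cv quadriceps (exact upper bound 6.49%). Before thinning, 3 of 63 cycled in the mdx5cv/Ccr2-/- quadriceps (4.76%, 0.993 to 13.3), at a median of 2416 UMIs per cell against 11945 for macrophage-like cells there. Unthinned shares inside that interval in the same library are therefore not told apart from background by the share alone. Among them were those of T-like (3.16%), Tnmd-high (3.7%), blood endothelial-like (1.57%), FAP/fibroblast-like (5.95%) and muscle-like cells (8.06%).

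**Figure D2:**
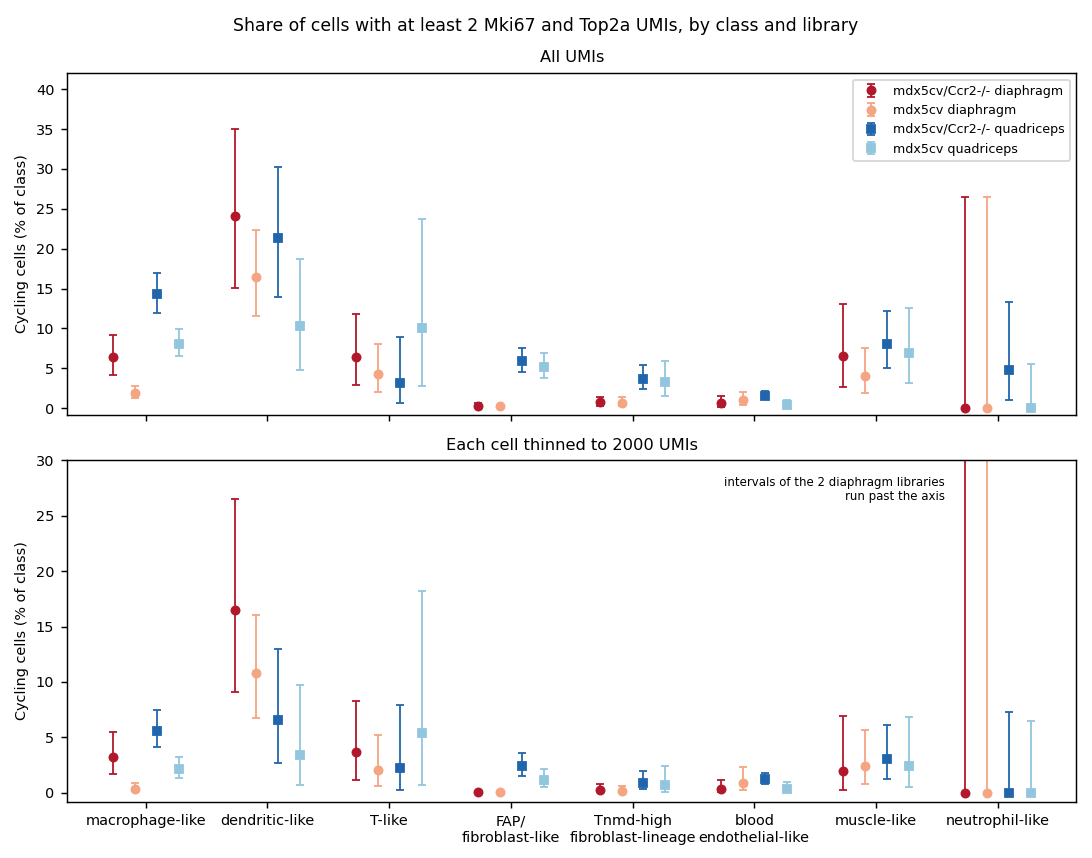
Cycling share (y axis, % of the cells of a class) in 8 classes with all UMIs (top) and with each cell thinned to 2000 UMIs (bottom). Points are libraries and bars exact 95% binomial intervals for counting error; dendritic-like cells lie highest at 24.1% in the mdx5cv/Ccr2-/- diaphragm, and FAP/fibroblast-like cells lie near 0 in both diaphragm libraries.

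In macrophage-like cells, genes of mitosis were higher in the mdx5cv/Ccr2-/- library of both muscles, while most genes of the replication fork were not. Mki67 stood at 104 CPM in the mdx5cv/Ccr2-/- and 12.7 CPM in the mdx5cv diaphragm, an 8.17-fold ratio (6.79 to 9.87), and at 133 and 43.3 CPM in the mdx5cv/Ccr2-/- and mdx5cv quadriceps, a 3.07-fold ratio (2.79 to 3.37). All 36 genes together gave 1315 and 557 CPM in the mdx5cv/Ccr2-/- and mdx5cv diaphragm (2.36-fold, 2.28 to 2.44), and 1819 and 983 CPM in the mdx5cv/Ccr2-/- and mdx5cv quadriceps (1.85-fold, 1.81 to 1.89). In the diaphragm 27 of the 36 genes were at least 1.5-fold higher, against 10.2% of all genes measured, and 0 were as much lower, against 5.66%. In the quadriceps 26 were higher, against 7.86%, and 0 lower, against 3.69%. The median log2 ratio of the 36 genes was 1.84 in the diaphragm and 1.21 in the quadriceps, and that of all measured genes was 0.08 and 0.09.

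Of the mitosis genes, 20 of 21 passed 1.5-fold in each muscle. Ccna2, whose cyclin drives entry into mitosis, had 19 CPM in the mdx5cv/Ccr2-/- and 1.27 CPM in the mdx5cv diaphragm, and 28.3 and 7.87 CPM in the mdx5cv/Ccr2-/- and mdx5cv quadriceps. Kif11, the motor that pushes spindle poles apart, had 20.6 and 1.43 CPM in the mdx5cv/Ccr2-/- and mdx5cv diaphragm, and 19.2 and 7.94 CPM in the mdx5cv/Ccr2-/- and mdx5cv quadriceps. Ccnb2 and Cdk1, whose promoters are shown above, were 6.22-fold and 7.44-fold higher in the diaphragm and 3.05-fold and 2.41-fold higher in the quadriceps. Top2a was 6.72-fold and 2.55-fold higher, and Ube2c 7.49-fold and 2.42-fold higher, in the diaphragm and the quadriceps. The exception was Cenpa, the histone variant that marks centromeres, at 64.5 and 66.7 CPM in the mdx5cv/Ccr2-/- and mdx5cv diaphragm (0.967-fold, 0.844 to 1.11).

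Of the replication genes, the same 5 of 13 passed in both muscles: Pclaf, a partner of Pcna, and the nucleotide genes Tyms, Rrm1, Rrm2 and Tk1. Rrm2 had 10.8 and 2.03 CPM in the mdx5cv/Ccr2-/- and mdx5cv diaphragm (5.34-fold, 3.22 to 9.09), and 23.2 and 8.28 CPM in the mdx5cv/Ccr2-/- and mdx5cv quadriceps (2.8-fold, 2.25 to 3.51). Pcna, the 6 MCM genes and Gins2, of the complex that fires the MCM ring, stayed within 1.5-fold, from 1.08 to 1.46 in the diaphragm and from 0.872 to 1.27 in the quadriceps. Mcm2, for instance, had 11.5 and 9.62 CPM in the mdx5cv/Ccr2-/- and mdx5cv diaphragm, and 16.6 and 19 CPM in the mdx5cv/Ccr2-/- and mdx5cv quadriceps. Summed, mitosis genes were 4.14-fold and 2.48-fold higher in the diaphragm and the quadriceps, and replication genes 1.54-fold and 1.37-fold. Stmn1, a regulator of microtubules, was 3.39-fold and 2.23-fold higher.

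Other genes of the cycle showed the same division. Of 30 further mitosis genes 29 were measured, and 24 of them passed 1.5-fold upward in the diaphragm and 27 in the quadriceps, with 0 lower in either. Hmmr, a spindle protein, had 15.6 and 0.844 CPM in the mdx5cv/Ccr2-/- and mdx5cv diaphragm, and 33.9 and 8.96 CPM in the mdx5cv/Ccr2-/- and mdx5cv quadriceps. Of 18 further replication genes 17 were measured, and 6 and 7 of them were higher in the diaphragm and the quadriceps. Of 8 G1 cyclins and kinases, 2 were higher in both muscles, Ccne1 and Ccne2, the cyclins E that start replication, and 1 was lower in the quadriceps. Of 9 measured cell cycle inhibitors, 2 and 3 were higher in the diaphragm and the quadriceps and 0 lower. All these counts stand against the same 10.2% and 7.86% of all genes higher, and 5.66% and 3.69% lower, in the diaphragm and the quadriceps.

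The share of cycling macrophage-like cells differed in the same direction. It recounts the Mki67 and Top2a UMIs given above by cell, so it is no separate evidence. At 2000 UMIs per cell the ratio of the shares was 8.35 (2.96 to 26.8) in the diaphragm and 2.59 (1.52 to 4.53) in the quadriceps. The diaphragm value rested on 13 and 6 cycling cells in the mdx5cv/Ccr2-/- and mdx5cv library. It was 1.37 where 1 UMI sufficed to call a cell cycling. Without thinning the ratios were 3.27 (1.87 to 5.7) in the diaphragm and 1.77 (1.32 to 2.37) in the quadriceps. Without Scrublet removal the thinned ratios were 4.66 and 1.97, the ratios of summed CPM 2.05 and 1.59, and the genes past 1.5-fold 26 and 25. The 13 replication genes, which were not used to call cells cycling, were read inside and outside the cycling cells. Cycling cells held 47.3% of their UMIs in macrophage-like cells of the mdx5cv/Ccr2-/- and 13.5% of the mdx5cv diaphragm, and 66.3% and 40.1% of the mdx5cv/Ccr2-/- and mdx5cv quadriceps. In the remaining macrophage-like cells these genes had 207 and 204 CPM in the mdx5cv/Ccr2-/- and mdx5cv diaphragm, and 229 and 257 CPM in the mdx5cv/Ccr2-/- and mdx5cv quadriceps.

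Few cells carried these values. The 5 cells with most Mki67 and Top2a UMIs held 52.8% and 37.8% of the class's UMIs of both genes in the mdx5cv/Ccr2-/- and mdx5cv diaphragm, and 19.4% and 36.2% in the mdx5cv/Ccr2-/- and mdx5cv quadriceps, so intervals on CPM are too narrow for the spread between cells. The makeup of the class moved with genotype too: all 6 monocyte genes were at least 1.5-fold lower in both mdx5cv/Ccr2-/- libraries, with median log2 ratios of -2.73 in the diaphragm and -3.35 in the quadriceps, against 5.66% and 3.69% of all genes. Of 8 resident macrophage genes, 8 were higher in the diaphragm, against 10.2%, and 3 were higher and 1 lower in the quadriceps, against 7.86% and 3.69%. In the diaphragm 5 of 5 MHC class II genes and 3 of 8 lipid-associated macrophage genes were lower, and in the quadriceps 0 of 5 and 0 of 8. Their part in the result was not tested. Of monocyte-like cells, 0 of 5 and 1 of 105 cycled in the mdx5cv/Ccr2-/- and mdx5cv diaphragm before thinning. The counts were 0 of 17 and 4 of 241 in the mdx5cv/Ccr2-/- and mdx5cv quadriceps. With so few cells, the counts of 0 allow shares of up to 52.2% and 19.5% in the mdx5cv/Ccr2-/- diaphragm and quadriceps (exact upper bounds).

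**Figure D3:**
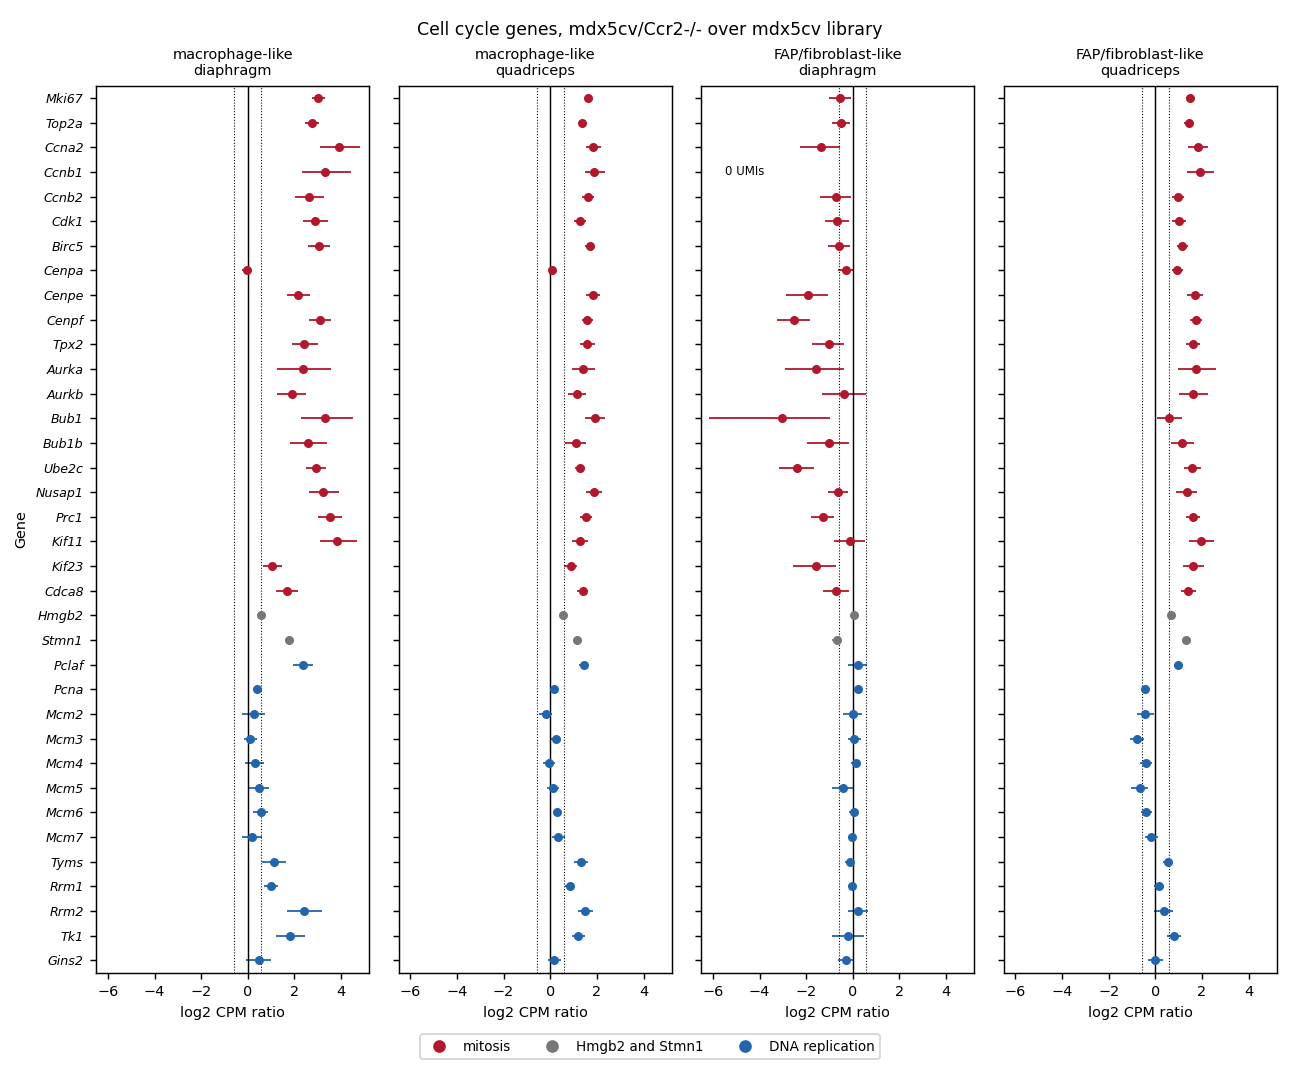
Log2 ratio of CPM (x axis), mdx5cv/Ccr2-/- over mdx5cv, for each of the 36 genes in macrophage-like and FAP/fibroblast-like cells of each muscle, with exact 95% intervals for counting error and dotted lines at 1.5-fold. In macrophage-like cells mitosis genes such as Mki67 lie right of the lines while the MCM genes lie between them, and in FAP/fibroblast-like cells the 2 muscles differ; Ccnb1 had 0 UMIs in mdx5cv/Ccr2-/- diaphragm FAP/fibroblast-like cells.

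By muscle, the 36 genes of macrophage-like cells were lower in the diaphragm, and by less in mdx5cv/Ccr2-/- mice. In mdx5cv/Ccr2-/- mice 13 genes were at least 1.5-fold lower in the diaphragm, against 8.43% of all genes, and 0 higher, against 9.54%. In mdx5cv mice 30 were lower, against 4.66%, and 0 higher, against 6.79%. Prc1 had 37.4 CPM in the diaphragm and 38.9 CPM in the quadriceps of mdx5cv/Ccr2-/- mice, and 3.29 CPM in the diaphragm and 13.4 CPM in the quadriceps of mdx5cv mice. The difference between genotypes was not tested.

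Dendritic-like cells had the highest summed level of the 36 genes among the classes drawn in the heat map, in 4 of 4 libraries. The sum was 3279 and 2644 CPM in the mdx5cv/Ccr2-/- and mdx5cv diaphragm, and 2462 and 1518 CPM in the mdx5cv/Ccr2-/- and mdx5cv quadriceps. Hmgb2, a chromatin protein, gave 888 and 748 CPM of it in the mdx5cv/Ccr2-/- and mdx5cv diaphragm, and 686 and 444 CPM in the mdx5cv/Ccr2-/- and mdx5cv quadriceps. The cycling share was 1.47-fold higher in the diaphragm (0.785 to 2.67) and 2.06-fold higher in the quadriceps (0.918 to 5.05) of mdx5cv/Ccr2-/- mice without thinning, and both intervals included 1. Without Scrublet removal the unthinned shares were 25.9% and 16% in the mdx5cv/Ccr2-/- and mdx5cv diaphragm, and 20.4% and 12.4% in the mdx5cv/Ccr2-/- and mdx5cv quadriceps.

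**Figure D4:**
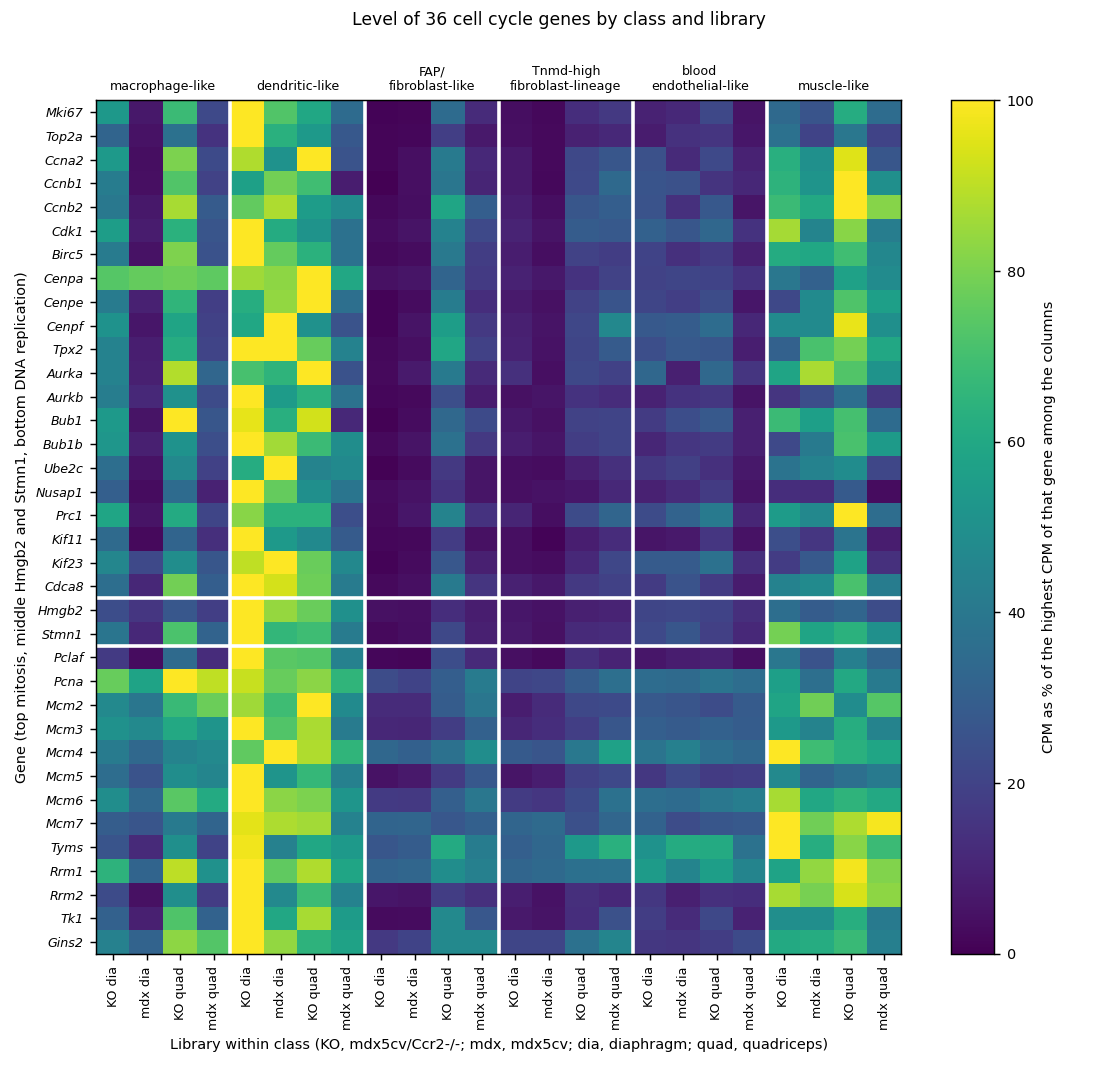
Heat map of the 36 genes (rows) in 6 classes and 4 libraries (columns), coloured by CPM as a percentage of the gene's own highest column. Bright colours mark high percentages. Dendritic-like columns are the brightest, with summed levels of 1518 to 3279 CPM. Diaphragm FAP/fibroblast-like columns are the darkest, at 200 and 222 CPM in the mdx5cv/Ccr2-/- and mdx5cv libraries.

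In FAP/fibroblast-like cells the 36 genes differed by muscle first. Their sum was 200 CPM in the diaphragm and 904 CPM in the quadriceps of mdx5cv/Ccr2-/- mice (0.221-fold), and 222 CPM in the diaphragm and 533 CPM in the quadriceps of mdx5cv mice (0.416-fold). In the diaphragm 33 of 36 genes were at least 1.5-fold lower in mdx5cv/Ccr2-/- mice, against 10.1% of all genes measured, and 31 in mdx5cv mice, against 10.5%; 0 were higher in either, against 8.81% and 9.09%. Mki67 had 2.06 CPM in the diaphragm and 68.1 CPM in the quadriceps of mdx5cv/Ccr2-/- mice, and 3.01 CPM in the diaphragm and 24.3 CPM in the quadriceps of mdx5cv mice. Mitosis genes parted further (0.0538-fold and 0.272-fold in mdx5cv/Ccr2-/- and mdx5cv mice) than replication genes (0.498-fold and 0.484-fold). Without Scrublet removal the ratios of the sum were 0.24 and 0.316. Fibroblast state genes moved with muscle in this class too. In mdx5cv/Ccr2-/- mice 7 of 7 activated genes were lower in the diaphragm, against 10.1% of all genes, with 3 of 5 resting and 2 of 5 adventitial genes higher, against 8.81%. In mdx5cv mice 3 of 7 activated genes were lower, against 10.5%, and the resting and adventitial lists were mixed, with 2 of 5 higher in each and 1 and 3 lower. Their part in the result was not tested. The muscle and genotype comparisons reuse the same 4 libraries.

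By genotype, FAP/fibroblast-like cells of the quadriceps had higher mitosis genes in the mdx5cv/Ccr2-/- library, but this rested on the doublet step. With Scrublet removal, 24 of 36 genes were at least 1.5-fold higher, against 5.40% of all genes, and 20 of these were mitosis genes. The sum was 904 and 533 CPM in the mdx5cv/Ccr2-/- and mdx5cv quadriceps (1.7-fold, 1.65 to 1.75). Without removal the sum was 1.13-fold and 5 genes passed. Mcm3 and Mcm5 went the other way, Mcm3 with 11.4 and 19.7 CPM and Mcm5 with 7.65 and 12.1 CPM in the mdx5cv/Ccr2-/- and mdx5cv quadriceps, against 4.07% of all genes lower. Summed replication genes were level, at 1-fold in the quadriceps and 1.03-fold in the diaphragm. With Scrublet removal, summed mitosis genes were 2.65-fold (2.53 to 2.78) in the quadriceps and 0.524-fold (0.481 to 0.571) in the diaphragm. In the mdx5cv/Ccr2-/- quadriceps 5 of 7 activated fibroblast genes were also higher, against 5.40%, and 4 of 5 adventitial and 3 of 5 resting genes lower, against 4.07%; in the diaphragm none of these lists had a gene past 1.5-fold. Their part in the result was not tested.

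In the diaphragm, 0 of 36 genes were higher in mdx5cv/Ccr2-/- FAP/fibroblast-like cells, against 0.704%, and 8 were lower, against 1.21%: Ccna2, Ccnb1, Cenpe, Cenpf, Ube2c, Stmn1, Prc1 and Kif23. Ube2c had 0.611 and 3.19 CPM in the mdx5cv/Ccr2-/- and mdx5cv diaphragm (0.191-fold, 0.111 to 0.312). Further genes of low level were not counted because calls added 1 CPM to both sides. Among them was Bub1, with 0.0643 and 0.524 CPM there (0.123-fold, 0.0139 to 0.505). Ccnb1 had 0 and 34 UMIs there, 0 allowing up to 0.0965 CPM in the mdx5cv/Ccr2-/- diaphragm against 0.89 CPM in the mdx5cv diaphragm. These levels came from 9 and 12 cycling cells in the mdx5cv/Ccr2-/- and mdx5cv diaphragm, and the 5 highest cells held 78.7% and 79.6% of Mki67 and Top2a UMIs. The cycling share ratio by genotype was 0.454 (0.00922 to 4.59) thinned and 1.39 (0.516 to 3.59) unthinned in the diaphragm, so its direction turned with depth. In the quadriceps it was 2.04 (0.935 to 4.81) thinned and 1.15 (0.767 to 1.73) unthinned. All 4 intervals included 1.

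Blood endothelial-like cells, which line the vessels, had higher mitosis genes in the mdx5cv/Ccr2-/- quadriceps. There 23 of 36 genes were at least 1.5-fold higher, against 2.87% of all genes, 19 of them mitosis genes, and 0 lower, against 2.29%. Mki67 had 42 and 10.4 CPM in the mdx5cv/Ccr2-/- and mdx5cv quadriceps (4.03-fold, 3.16 to 5.21), and Pcna 60.3 and 55.7 CPM (1.08-fold, 0.958 to 1.23). The 36 genes together had 785 and 477 CPM there (1.64-fold, 1.58 to 1.71). Scrublet had removed 18.2% of cycling endothelial-like cells in the mdx5cv/Ccr2-/- and 40% in the mdx5cv quadriceps; without removal the sum was 1.51-fold and 20 genes were higher. These levels rested on 36 cycling cells in the mdx5cv/Ccr2-/- and 6 in the mdx5cv quadriceps. The 36 cells had on average 9.94 of the other 34 genes detected at equal depth, against 0.619 in the other endothelial-like cells of that library. In the diaphragm 4 genes were higher, against 5.63%, and 1 lower, against 5.51%. Between muscles, 1 gene was higher and 5 lower in the diaphragm of mdx5cv/Ccr2-/- mice, against 2.90% and 6.88%. In the diaphragm of mdx5cv mice 21 were higher and 0 lower, against 5.05% and 8.25%. Those values rested on 7 cycling cells in the mdx5cv diaphragm and 6 in the mdx5cv quadriceps. The 5 highest cells of each held 91.1% and 88.2% of Mki67 and Top2a UMIs. The ratio of cycling shares was 2.24 (0.646 to 8.08) unthinned and 2.4 (0.448 to 12.9) thinned, and both intervals included 1. Mki67 had 19 CPM in the diaphragm and 42 CPM in the quadriceps of mdx5cv/Ccr2-/- mice, and 22.6 CPM in the diaphragm and 10.4 CPM in the quadriceps of mdx5cv mice. The mdx5cv quadriceps was thus the lowest of the 4 libraries for Mki67 in these cells.

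In Tnmd-high cells 26 of 36 genes were lower in the diaphragm of mdx5cv/Ccr2-/- mice, against 9.15% of all genes, and 34 in mdx5cv mice, against 10.3%. Kera and Scx were also detected in fewer of these cells in the diaphragm, as given above, and 7 and 2 of 7 activated fibroblast genes were lower there in mdx5cv/Ccr2-/- and mdx5cv mice; their part in the result was not tested. By genotype, 11 genes, all of mitosis, were higher in the mdx5cv/Ccr2-/- diaphragm, against 1.77%, but 1 without Scrublet removal. None was lower, against 1.79%. These levels rested on 8 and 9 cycling cells in the mdx5cv/Ccr2-/- and mdx5cv diaphragm. The 5 highest cells held 92.1% and 84.3% of Mki67 and Top2a UMIs. The unthinned ratio of cycling shares was 1.01 (0.34 to 2.96) in the diaphragm. There the sum was 294 and 244 CPM in the mdx5cv/Ccr2-/- and mdx5cv diaphragm (1.21-fold), and 0.916-fold without that removal. In the quadriceps 6 genes were lower, against 5.24%, and the sum was 530 and 654 CPM in the mdx5cv/Ccr2-/- and mdx5cv quadriceps (0.81-fold), and 0.595-fold without that removal. Those quadriceps levels rested on 25 and 10 cycling cells in the mdx5cv/Ccr2-/- and mdx5cv library. There 5 cells held 63.1% and 91.5% of Mki67 and Top2a UMIs. The quadriceps ratio of cycling shares was above 1, at 1.12 (0.521 to 2.62) unthinned and 1.35 (0.241 to 13.7) thinned, and both intervals included 1. Muscle-like cells, with 35 of the genes measured, had 5 higher and 3 lower in the mdx5cv/Ccr2-/- diaphragm, against 8.65% and 8.85%. In the mdx5cv/Ccr2-/- quadriceps they had 14 higher and 0 lower, against 9.42% and 4.25%. The quadriceps values rested on 20 and 9 cycling cells in the mdx5cv/Ccr2-/- and mdx5cv library. The 5 highest cells held 61.3% and 87.9% of Mki67 and Top2a UMIs. The ratio of cycling shares there was 1.17 (0.511 to 2.93) unthinned and 1.26 (0.287 to 7.53) thinned. Without Scrublet removal 3 and 14 genes were higher in the diaphragm and the quadriceps, and the summed ratios of 1.22 and 1.48 became 1.13 and 1.49. Between muscles they had 1 gene higher and 12 lower in the diaphragm of mdx5cv/Ccr2-/- mice, against 5.07% and 12.4%, and 7 higher and 1 lower in that of mdx5cv mice, against 9.09% and 10.5%. Within them, cells with Myog, which marks commitment to fuse, cycled in 2 of 10 and 1 of 27 cells in the mdx5cv/Ccr2-/- and mdx5cv diaphragm, and in 4 of 26 and 1 of 8 in the mdx5cv/Ccr2-/- and mdx5cv quadriceps, without thinning. These cells were deep, with medians of 15829 to 19177 UMIs, and thinned to 2000 UMIs 0 of them cycled in any library. Only 7 to 26 of them were left per library. A count of 0 thus allows, at 3 cells, a share of up to 11.5% even in the best sampled one, the mdx5cv/Ccr2-/- quadriceps.

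Cycling cells, chosen by Mki67 and Top2a alone, were compared with the other cells of their class for the remaining 34 genes, over each library with at least 20 cycling cells. In macrophage-like cells 32 of the 34 were at least 2-fold higher in all 4 libraries, against 2.63% of all genes, and 0 lower, against 0.0260%. Their median log2 ratio was 4.07, against 0.00 for all genes. Prc1 had a mean log2 ratio of 6.13, Nusap1, which bundles spindle microtubules, 5.86, and Pclaf 5.86. The exceptions were Cenpa at 1.49 and Pcna at 1.54. Replication genes stood at a median of 2.64 and mitosis genes at 4.63. Cycling cells also had more UMIs, with medians of 16573 and 11163 in the mdx5cv/Ccr2-/- and mdx5cv diaphragm and 21131 and 18759 in the mdx5cv/Ccr2-/- and mdx5cv quadriceps, against 9829, 6864, 10946 and 12556 for the other macrophage-like cells of the same libraries.

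**Figure D5:**
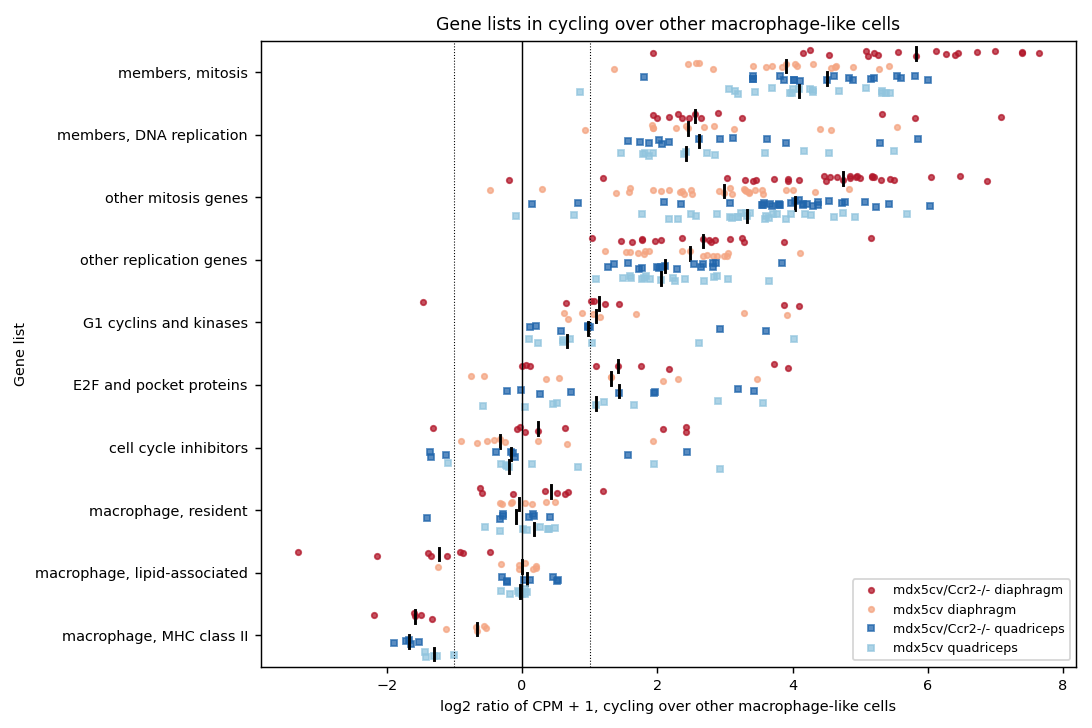
Log2 ratio of CPM (x axis, 1 CPM added to both), cycling over other macrophage-like cells, by gene list (y axis) and library; points are genes, black bars medians and dotted lines 2-fold. Mitosis and replication genes lie highest, with medians over the libraries of 4.63 and 2.64, and the inhibitors lie near 0, at -0.23.

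Beyond the 36 genes, 27 of 29 measured further mitosis genes and 17 of 17 further replication genes were higher in cycling macrophage-like cells, as were Ccne1 and Ccne2 of 8 G1 genes and 0 of 9 inhibitors. Of the E2F family, which switches on replication genes, 5 of 9 were higher, among them E2f7 (mean log2 ratio 3.49) and E2f8 (3.14). MHC class II genes, which present antigen, had a median log2 ratio of -1.29 with 0 of 5 past the 2-fold rule in every library. Cd74, their chaperone, had 2116 CPM in cycling and 6396 CPM in other cells of the mdx5cv/Ccr2-/- diaphragm. That is 1 library, with 26 cycling cells, and it does not stand for the others. Outside the lists, the highest ratios included Aspm (5.30), Esco2 and Kif4, and several histone genes such as Hist1h1b (6.68), whose near-identical copies may share reads.

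The same held where other classes had enough cycling cells. All 34 genes were higher in FAP/fibroblast-like cells of both quadriceps libraries, against 3.51% of all genes, 30 of 31 measured in dendritic-like cells of the mdx5cv diaphragm and mdx5cv/Ccr2-/- quadriceps, against 4.18%, 31 of 31 in endothelial-like cells of the mdx5cv/Ccr2-/- quadriceps, against 7.80%, and 29 of 29 in Tnmd-high cells there, against 4.73%. None of the genes was lower in any of these classes, where 3.98% (FAP/fibroblast-like), 0.822% (dendritic-like), 11% (endothelial-like) and 9.65% (Tnmd-high) of all genes were.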

How the data were processed

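Single mononuclear cells were profiled with 10x Genomics 3′ v3.1 chemistry, per the labels' protocols. The authors deposited raw UMI counts per gene and barcode, made with Cell Ranger 6.1.2 on mm10 as the file headers and submitters' processing notes say. Annotation release, intron handling and strand use were not given in the sources used here. Of the 36 genes, 16 overlap another gene in the reference annotation, 8 of them on the same strand, and 5 have pseudogenes named after them, so their counts may be shared.

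Kept cells had 500 or more UMIs, 300 or more genes and no more than 15% mitochondrial UMIs (31077 of 33554), and the highest Scrublet scores were removed at 0.8% per 1000 barcodes, leaving 28735. A cell joined the lineage with most of its 6 markers detected, given at least 3 and a lead of 2. CPM scales a gene's UMIs to the total UMIs of the class in a library. Ratios used a pseudocount of 1 CPM for calls at 1.5-fold, among genes with at least 50 UMIs over the class's 4 libraries. Levels have exact Poisson, shares Clopper-Pearson and ratios exact conditional binomial 95% intervals. Depth was equalised by thinning each cell to 2000 UMIs. Named were every member, and from each other list at most 6 genes past the fold in every library or both muscles, and outside the lists the 15 highest ratios; some other genes were named after their values were seen. The members and lists were chosen with earlier results of these data known. Filters, gates, scaling, thinning depth, cycling minimum, pseudocount and fold were varied. Scripts were tested on simulated data, with Python 3.11.15, numpy 2.4.6, pandas 2.3.3, scipy 1.17.1, scanpy 1.11.5 and matplotlib 3.10.9.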

Additional observations from a re-analysis of the deposited data

Results flagged for a closer look

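With Scrublet removal, the summed level of the 36 genes lay on opposite sides of 1 by genotype in the 2 muscles in both fibroblast classes. In FAP/fibroblast-like cells the ratio of mdx5cv/Ccr2-/- over mdx5cv was 0.901 in the diaphragm and 1.7 in the quadriceps. In Tnmd-high cells it was 1.21 in the diaphragm and 0.81 in the quadriceps. The Tnmd-high values rested on few cycling cells, 8 and 9 in the mdx5cv/Ccr2-/- and mdx5cv diaphragm. The mdx5cv/Ccr2-/- and mdx5cv quadriceps had 25 and 10. Without Scrublet removal the ratios were 0.858 in the diaphragm and 1.13 in the quadriceps of FAP/fibroblast-like cells, still on opposite sides of 1. In Tnmd-high cells they were then 0.916 and 0.595, both below 1, so the opposite direction was lost. With 1 library per group the difference between muscles was not tested.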

How the results depend on the processing

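Of 135 alternative values for the macrophage-like and FAP/fibroblast-like comparisons, 116 lay within the reported interval, or within 1.5 times for a count, and 19 moved; for other classes, 162, 38 and 3 that reversed, meaning that the reported interval excluded 1 and the alternative lay beyond 1. For macrophage-like cells, the ratio of the summed genes by genotype was 2.05 (diaphragm) and 1.59 (quadriceps) without Scrublet removal, 2.22 and 1.73 with median-ratio scaling, and 2.57 in the diaphragm without Hmgb2 and Stmn1; the mdx5cv diaphragm over quadriceps ratio was then 0.533. The thinned share ratio in the diaphragm was 1.37 when 1 UMI sufficed to call a cell cycling. For FAP/fibroblast-like cells, the genotype ratio was 0.858 in the diaphragm without Scrublet removal, and in the quadriceps 1.13 without it, 1.77 with stricter cell filters and 1.64 with median-ratio scaling; 5 in place of 24 genes passed without Scrublet removal. Their diaphragm over quadriceps ratio in mdx5cv/Ccr2-/- mice was 0.24 without Scrublet removal, 0.229 with median-ratio scaling and 0.214 without Hmgb2 and Stmn1, and in mdx5cv mice 0.316, 0.43 and 0.399, with 0.432 under stricter cell filters. Reversed were the genotype ratio in the diaphragm of Tnmd-high cells without Scrublet removal (0.916), that of muscle-like cells with a gate of 4 markers (0.926), and the diaphragm over quadriceps ratio of muscle-like cells in mdx5cv/Ccr2-/- mice with a lead of 1 marker (1.34). Ratios of cycling shares whose wide intervals included 1 also crossed it: the FAP/fibroblast-like diaphragm (0.454) reached 1.39 unthinned and 1.09 with 1 UMI, the Tnmd-high quadriceps (1.35) came to 0.454 without Scrublet removal and to 0.9 and 0.902 under 2 others, and the muscle-like diaphragm (0.808) reached 1.2 to 2.02 under 5 alternatives. The causes were not tested. No paired analysis was possible because each group had 1 library, and for the same reason no replicate could be left out.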

Other observations

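Cycling cells of 2 further classes also differed from the rest of their class in genes outside the cycle. In FAP/fibroblast-like cells of the quadriceps, 5 of 5 genes of resting fibroblasts and 4 of 5 adventitial genes were at least 2-fold lower in cycling cells of both libraries, against 3.98% of all genes. Apod had 103 CPM in cycling and 632 CPM in other cells of the mdx5cv/Ccr2-/- quadriceps, and 313 and 1046 CPM in cycling and other cells of the mdx5cv quadriceps. Pi16, a marker of adventitial fibroblasts, had 18.1 and 140 CPM in cycling and other cells of the mdx5cv/Ccr2-/- quadriceps, and 45.7 and 217 CPM in those of the mdx5cv quadriceps. Of 10 cell cycle inhibitors, 3 were lower, among them Cdkn1c, with 77.2 and 454 CPM in cycling and other cells of the mdx5cv/Ccr2-/- quadriceps and 47.7 and 210 CPM in those of the mdx5cv quadriceps. Of 7 genes of activated fibroblasts 3 were higher, against 3.51% of all genes. Among them was Acta2, smooth muscle actin, with 408 and 132 CPM in cycling and other cells of the mdx5cv/Ccr2-/- quadriceps and 283 and 51.4 CPM in those of the mdx5cv quadriceps. Cycling cells were also deeper, with medians of 27733 and 32459 UMIs in the mdx5cv/Ccr2-/- and mdx5cv quadriceps. The other cells had 12701 and 13088.

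In endothelial-like cells of the mdx5cv/Ccr2-/- quadriceps, 5 of 5 arterial genes were lower in cycling cells, against 11% of all genes. Sox17, a factor of arterial fate, had 85.3 CPM in cycling and 179 CPM in other cells. The arterial connexin Gja5 had 0 and 26.7 CPM in cycling and other cells. The drop was not limited to arterial genes: 3 of 6 capillary genes and 4 of 4 measured MHC class II genes were also lower, and 0 of 5 venous genes.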
